A study of Homo sapiens with 5 samples.

Results

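The lung lineage genes examined here were 4 transcription factors of the developing and adult lung epithelium (NKX2-1, FOXA1, FOXA2, GATA6), 4 surfactant protein genes (SFTPA1, SFTPB, SFTPC, SFTPD), the alveolar protease gene NAPSA and the club cell gene SCGB1A1. The 10 genes were chosen by name, and each was read from the entry under its symbol in a gene-level expression table of 37181 entries, taking the entry with the highest mean where a symbol had several. An entry under the symbol was found for 8 of the 10, and 3 of these passed the minimum of a mean of 0.5 FPKM (a level of mapped fragments scaled to transcript length and to library size) that was set for testing.

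HCC827 is an established human lung adenocarcinoma cell line that carries an exon 19 deletion in EGFR, the receptor kinase blocked by gefitinib. RNA from HCC827/GR, a single gefitinib-resistant line grown out of HCC827 under stepwise increasing drug (3 libraries, replicates 1, 2 and 3), was compared with RNA from the parental HCC827 cells (2 libraries, replicates 2 and 3), and both lines carry the deletion. The sources do not say that the replicates were separate cultures, so the p-values measure only the spread between these libraries. Log2 FPKM values correlated across entries at 0.913 to 0.927 between libraries of the same line and at 0.851 to 0.873 between libraries of different lines, the entries not being independent replicates. Sequencing depth is unknown, because FPKM values carry no read numbers.

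NKX2-1, a homeodomain factor also called TTF-1, marks the lung and thyroid epithelium and is used to recognise lung adenocarcinoma. In lung it acts with the pioneer factors FOXA1 and FOXA2 and with the zinc finger factor GATA6 at the promoters of surfactant protein genes. The surfactant proteins and napsin A, the aspartic protease encoded by NAPSA that trims pro-surfactant protein B, are products of the alveolar type II cell, and SCGB1A1 is the main secretoglobin of the club cells of the airways.

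The sequence before a RefSeq start site is shown for the 3 genes whose levels carried the comparison (NKX2-1, FOXA1 and NAPSA), and for SFTPA1 as a surfactant gene that was almost unread in both lines. RefSeq windows on GRCh38.p14 were found for 7 of the 10 genes. Capitals mark a match on either strand to CTCAAG, the core recognised by NKX2-1, or to TGTTTAC, the core of forkhead sites. The core recognised by GATA factors, AGATAA, was searched as well. The stretches are the 250 bases before a start, on the minus strand for NKX2-1, FOXA1 and NAPSA and on the plus strand for SFTPA1, and the NKX2-1 stretch was shortened to 196 bases to leave out untranslated exon. The start sites are RefSeq's, and other annotated transcripts can begin further upstream: 99 bases of the FOXA1 stretch lie in exon of FOXA1, and 29 bases of the NAPSA stretch in exon of AC008655.2.

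NKX2-1 chr14:36520287-36520482: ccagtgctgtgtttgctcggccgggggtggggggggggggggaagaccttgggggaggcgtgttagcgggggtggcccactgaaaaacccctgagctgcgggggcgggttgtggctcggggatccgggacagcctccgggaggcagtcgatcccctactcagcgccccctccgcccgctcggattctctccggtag
FOXA1 chr14:37595250-37595499: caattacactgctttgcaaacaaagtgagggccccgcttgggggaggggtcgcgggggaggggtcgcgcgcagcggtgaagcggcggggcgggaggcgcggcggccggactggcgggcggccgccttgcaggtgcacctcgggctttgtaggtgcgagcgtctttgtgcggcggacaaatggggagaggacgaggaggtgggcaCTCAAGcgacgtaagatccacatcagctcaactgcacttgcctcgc
NAPSA chr19:50369303-50369552: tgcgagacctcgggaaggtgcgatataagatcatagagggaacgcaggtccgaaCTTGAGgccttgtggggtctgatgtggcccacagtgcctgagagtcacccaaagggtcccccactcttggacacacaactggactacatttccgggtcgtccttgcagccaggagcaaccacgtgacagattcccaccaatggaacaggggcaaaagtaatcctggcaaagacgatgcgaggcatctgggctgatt
SFTPA1 chr10:79610689-79610938: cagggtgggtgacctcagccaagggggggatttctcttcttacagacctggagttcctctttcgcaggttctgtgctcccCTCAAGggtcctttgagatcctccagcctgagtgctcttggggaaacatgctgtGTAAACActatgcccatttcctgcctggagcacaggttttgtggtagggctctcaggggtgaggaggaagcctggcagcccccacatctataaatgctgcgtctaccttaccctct

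The NKX2-1 stretch shown held none of the 3 cores. NKX2-1 has a second RefSeq start, whose stretch (chr14:36519557-36519806) held 1 forkhead core and 1 GATA core. Both cores lie in the 137 bases of this stretch that are untranslated exon, and it is not shown because of that exon. The stretch of the second NAPSA start (chr19:50365640-50365889) held none. The FOXA1 and NAPSA stretches held 1 NKX2-1 core each, and the SFTPA1 stretch held 1 NKX2-1 core and 1 forkhead core. Among the 250-base upstream stretches of all 35116 windows, 10.37% held CTCAAG, 2.979% held TGTTTAC and 9.167% held AGATAA on either strand, so a match of this kind is a description of the letters and not of a bound site.

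Among the lineage factors, NKX2-1 and FOXA1 were lower in HCC827/GR, GATA6 stood at the higher level there without being called, and FOXA2 was near or below the minimum in both lines. NKX2-1 (ENSG00000136352, chr14:36516392-36521149, minus strand, GRCh38) read 4.60 and 4.003 FPKM in HCC827 and 0.963, 0.762 and 0.415 FPKM in HCC827/GR. Every resistant library was under both parental ones. The mean level was 4.30 ± 0.422 FPKM (SD, n = 2) in HCC827 and 0.714 ± 0.277 FPKM (SD, n = 3) in HCC827/GR, a ratio of 6.03. The difference was -1.64 on the log2(FPKM + 1) scale (SE 0.175), with an adjusted p of 0.0115 by limma over all 16189 entries tested. NKX2-1 met the fold and p rule under every alternative, but the adjusted p was 0.164 with Ballgown's model and 0.0820 or 0.0639 without HCC827 replicate 2 or 3.

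The entry named NKX2-1 was an assembled locus with 18 transcripts, which also took in SFTA3 and AL132857.1, genes annotated on the same strand at chr14:36473288-36513829 and chr14:36473207-36519521. Its values are therefore for the joined locus. NKX2-1-AS1, the antisense gene at chr14:36519278-36523016 and a gene chosen after its values were seen, read 3.25 and 3.57 FPKM in HCC827 and 0.433, 0.685 and 0.283 FPKM in HCC827/GR. This was a change of -1.60 on the log2(FPKM + 1) scale (SE 0.155; limma adjusted p 0.00996). Strand use in the counting is not given in the sources used here, and without it the reads of the overlapping genes cannot be told apart.

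FOXA1 (ENSG00000129514, chr14:37589984-37596059, minus strand), the forkhead factor that opens chromatin in endodermal tissues, read 2.39 and 4.97 FPKM in HCC827 and 1.04, 1.23 and 1.25 FPKM in HCC827/GR. The resistant libraries lay close together and below both parental libraries, which were themselves far apart. Means were 3.68 ± 1.82 FPKM (SD, n = 2) and 1.17 ± 0.116 FPKM (SD, n = 3), and the difference was -1.05 on the log2(FPKM + 1) scale (SE 0.260; limma unadjusted p 0.0108, adjusted p 0.0740). The call rested on HCC827 replicate 3: without that library the difference was -0.64, under the fold threshold, with a limma adjusted p of 0.107, and without HCC827 replicate 2 it was -1.46 with an adjusted p of 0.0398. Under Ballgown's model the difference was -1.14 and the unadjusted p 0.130, so the call was lost there as well.

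FOXA2 (ENSG00000125798, chr20:22581005-22585455, minus strand), the paralogue of FOXA1 with a role in alveolar maturation, read 0.652 and 0.468 FPKM in HCC827. In HCC827/GR it read 0.0582 and 0.0779 FPKM and was listed at 0 in replicate 3. The groups did not overlap, at means of 0.560 ± 0.130 FPKM (SD, n = 2) and 0.0454 ± 0.0405 FPKM (SD, n = 3). Its mean over all libraries, 0.251 FPKM, was under the minimum, so it was not tested. When no minimum was set, the difference was -0.58 on the log2(FPKM + 1) scale (SE 0.0844, limma adjusted p 0.0479), short of the fold threshold. From a mean of 0.560 FPKM in HCC827, no fall on this scale could reach that threshold. The ratio of the mean levels, HCC827 over HCC827/GR, was 12.3, but it rests on HCC827/GR values near 0.

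GATA6 (ENSG00000141448, chr18:22169443-22202528, plus strand), a factor of foregut endoderm and distal lung, was the factor with the higher level in the resistant line. It read 0.725 and 1.23 FPKM in HCC827 and 2.30, 1.70 and 1.91 FPKM in HCC827/GR, again with no overlap. Means were 0.980 ± 0.360 FPKM (SD, n = 2) and 1.97 ± 0.307 FPKM (SD, n = 3). The difference of 0.59 on the log2(FPKM + 1) scale (SE 0.168; limma unadjusted p 0.0182, adjusted p 0.102) did not reach the fold threshold, while the ratio of the mean levels, 2.01, did. GATA6-AS1, chosen after its values were seen, read 0.252 and 0.153 FPKM in HCC827 and 0.413, 0.316 and 0.447 FPKM in HCC827/GR and was under the minimum for testing.

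**Figure D1:**
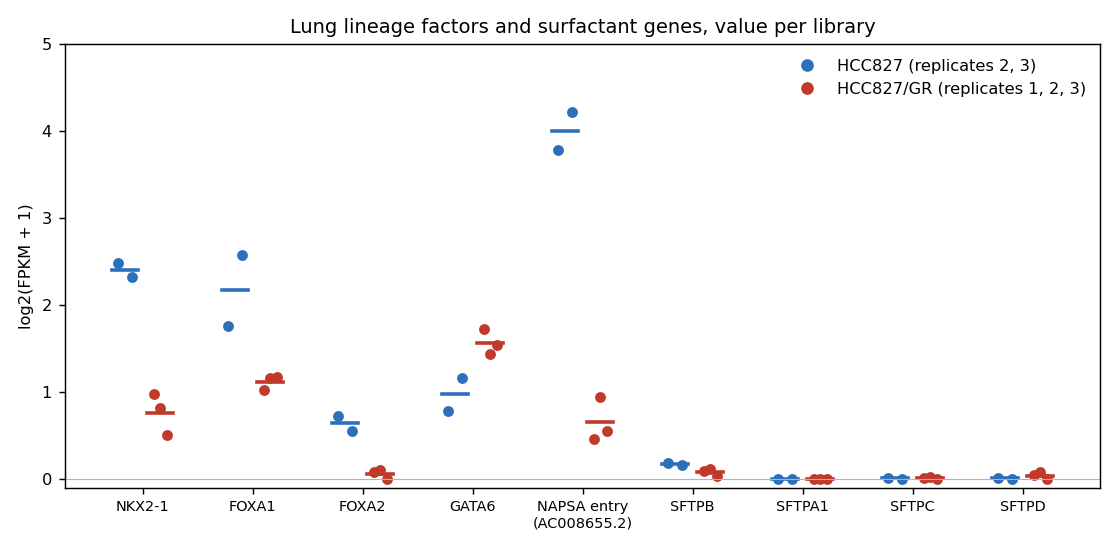
Log2(FPKM + 1) of each lung lineage gene with an entry, and of the entry that holds the transcripts of NAPSA, in each library of HCC827 and HCC827/GR. Each point is 1 library and each line a group mean; the points for NKX2-1, at 4.60 and 4.003 FPKM in HCC827 before the log, are all at or under 0.963 FPKM in HCC827/GR, while those for SFTPA1, SFTPC and SFTPD stay under 0.1 FPKM in both lines.

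No surfactant protein gene reached the minimum for testing in either line. SFTPB (chr2:85657314-85668741, minus strand), which encodes the small hydrophobic protein needed for the surfactant film, was the highest of the 4. It read 0.139 and 0.118 FPKM in HCC827 and 0.0625, 0.0808 and 0.0284 FPKM in HCC827/GR. The groups did not overlap, at levels so low that the difference was -0.09 on the log2(FPKM + 1) scale, and with no minimum the limma adjusted p was 0.236.

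SFTPA1, SFTPC and SFTPD were under 0.1 FPKM in every library, so that these 3 were the members with an entry that were absent or nearly so in both lines. SFTPA1 (chr10:79610939-79615455, plus strand), which encodes the collectin surfactant protein A, was read at 0.00380 FPKM in HCC827 replicate 2, with a 0 listed for each of the other 4 libraries. Its near-identical paralogue SFTPA2, with which it can share reads, was named after its values were seen. SFTPA2 read 0.281 and 0.0860 FPKM in HCC827 and was listed at 0 in all 3 HCC827/GR libraries. Neither paralogue's value can be taken as its own alone.

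SFTPC (chr8:22156913-22164479, plus strand), whose product is specific to type II cells, read 0.0117 FPKM and 0 in HCC827 and 0.0121, 0.0197 and 0 FPKM in HCC827/GR. SFTPD (chr10:79937740-79982614, minus strand), the second lung collectin, read 0.0122 FPKM and 0 in HCC827 and 0.0294, 0.0558 and 0 FPKM in HCC827/GR. Both overlapped between the lines. A value of 0 in a table of this kind can be a failed estimate, since 53 of 5458 entries whose mean was 5 FPKM or more were listed at 0 in at least 1 library, 39 of them single-exon genes.

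NAPSA (ENSG00000131400, chr19:50358477-50365830, minus strand) had no entry under its symbol. Its annotated transcripts were found, after the values had been seen, in an assembled locus of 9 transcripts that carried the symbol AC008655.2, a gene just upstream of it on the same strand at chr19:50365880-50369331. RefSeq extends NAPSA to 50369302, inside AC008655.2. The joined entry read 12.7 and 17.6 FPKM in HCC827 and 0.380, 0.930 and 0.463 FPKM in HCC827/GR. The lines were far apart, with mean levels of 15.1 ± 3.44 FPKM (SD, n = 2) and 0.591 ± 0.296 FPKM (SD, n = 3), a ratio of 25.6. On the log2(FPKM + 1) scale the difference was -3.34 (SE 0.216; limma adjusted p 0.00422). It met the fold and p rule under every alternative, with an adjusted p of 0.200 under Ballgown's model. How the reads were divided between NAPSA and AC008655.2 cannot be told from gene-level values.

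SCGB1A1 (chr11:62405103-62423195, plus strand) had no entry under its symbol, and none of its annotated transcripts was in any entry, so no value is given for it.

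Over the 10 genes, 3 were tested under their own symbols, and 2 of these (NKX2-1 and FOXA1) were called lower and 0 higher, where a call needed a fold of 2 or more, or of 0.5 or less, with an unadjusted limma p below 0.05. Over all entries tested, 3.97% were called lower and 2.96% higher. With the joined entry of NAPSA, 3 genes were lower. The groups did not overlap for all 3 tested genes, where 46.3% of all entries tested did not overlap, so this count says little by itself. An exact permutation test of 3 against 2 libraries cannot give a two-sided p under 0.1. In bulk RNA of this kind, fewer cells that express a gene and less RNA in each cell cannot be told apart.

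**Figure D2:**
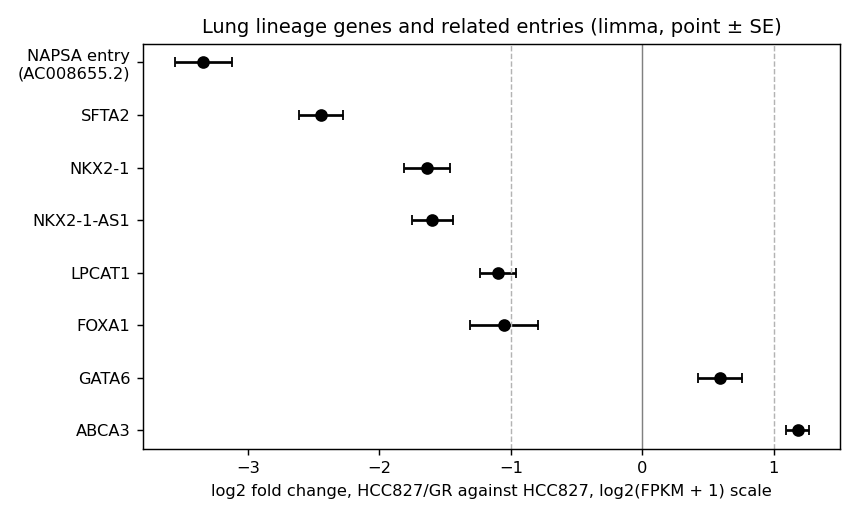
Differences in log2(FPKM + 1), HCC827/GR minus HCC827, for the tested lung lineage genes, the joined entry of NAPSA, NKX2-1-AS1 and the 3 called alveolar type II markers; bars are standard errors from limma and dashed lines mark the fold threshold. The NAPSA entry is farthest to the lower side at -3.34, NKX2-1 lies at -1.64 and FOXA1 at -1.05 with the widest bar, and GATA6 (0.59) and ABCA3 (1.18) lie on the higher side.

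NKX2-1 and FOXA1 lie on the same arm of chromosome 14, with starts 1.07 Mb apart, so the genes around them were read as well. Within 1.5 Mb on each side, 9 other protein-coding genes were tested and 0 were called in either direction by limma, although 5 had an unadjusted p below 0.05. The share of all entries tested at such a p was not counted. Measured along the chromosome from the NKX2-1 start, the 9 genes lay at -1476 to 677 kb, so no gene past FOXA1 was tested. Among all 9, 4 had a difference below 0, and the median difference was 0.21 on the log2(FPKM + 1) scale. PAX9, a paired-box factor gene and the nearest tested neighbour past the NKX2-1 start, read 3.12 and 3.18 FPKM in HCC827 and 1.51, 1.35 and 1.37 FPKM in HCC827/GR, a difference of -0.79 (SE 0.0925; limma adjusted p 0.0135) that was short of the fold threshold. MBIP, on the other side, differed by -0.30 and MIPOL1, which lies beside FOXA1, by -0.03. TTC6, a further neighbour of FOXA1, was under the minimum for testing. It read 0.226 and 0.194 FPKM in HCC827 and 0.0290, 0.0600 and 0.0758 FPKM in HCC827/GR, with no overlap. NFKBIA, the inhibitor of NF-kappa B, had the largest difference to the higher side at 0.66. These neighbours were named after their values were seen.

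**Figure D3:**
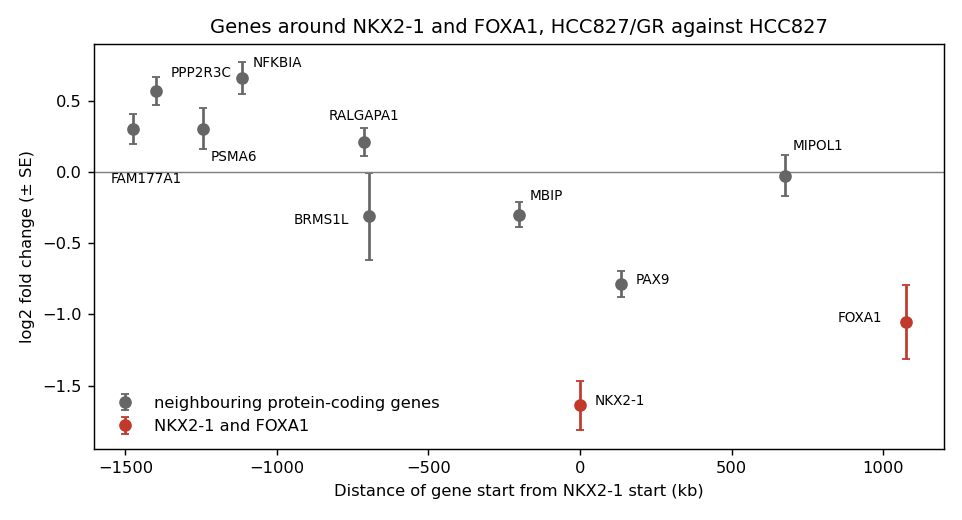
Differences in log2(FPKM + 1) between HCC827/GR and HCC827 for the protein-coding genes tested within 1.5 Mb of NKX2-1 and FOXA1, against distance from the start of NKX2-1; bars are standard errors. NKX2-1 (-1.64) and FOXA1 (-1.05) lie lowest, PAX9 follows at -0.79, and the other genes lie between -0.31 and 0.66.

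Other transcription regulators of the lung epithelium were read from a list of 30 genes, of which 25 had an entry and 16 were tested. By limma, 4 were called lower and 1 higher, where 3.97% of all entries tested were called lower and 2.96% higher. The median difference of the 16 was -0.13, beside 0.0014 over all entries tested. Those lower were EHF and GRHL2, which maintain epithelial identity, ETV4, an effector of FGF signalling, and KLF5, a factor of airway and alveolar epithelium.

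EHF read 6.18 and 5.52 FPKM in HCC827 and 0.312, 0.241 and 0.0602 FPKM in HCC827/GR, a difference of -2.51 (SE 0.140; limma adjusted p 0.00275). GRHL2 read 3.82 and 5.59 FPKM in HCC827 and no more than 0.0203 FPKM in any HCC827/GR library, a difference of -2.47 (SE 0.169; limma adjusted p 0.00469). In both genes the parental and resistant libraries were widely separated. Their mean levels in HCC827/GR, 0.204 FPKM for EHF and 0.0140 FPKM for GRHL2, were under the minimum, so both were tested through HCC827 alone. GRHL2, near 0 in HCC827/GR, could be tested only at a parental level already near or past the fold threshold. The count called lower takes in both genes. ETV4 differed by -1.47 (adjusted p 0.0122) and KLF5 by -1.30 (adjusted p 0.0355), the levels of KLF5 being 13.9 and 21.4 FPKM in HCC827 and 5.59 to 7.85 FPKM in HCC827/GR.

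The most abundant regulators that were not called were SOX4, with mean levels of 33.7 FPKM in HCC827 and 37.5 FPKM in HCC827/GR, and ELF3, with 15.2 and 10.4 FPKM. CEBPA, a single-exon gene for a partner of NKX2-1 in type II cells, chosen after its values were seen, was listed at 0 in both HCC827 libraries and read 0.720, 1.13 and 0.693 FPKM in HCC827/GR.

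The other markers of the alveolar type II cell did not move one way. Of 20 listed genes, 18 had an entry and 9 were tested, with 2 called lower and 1 higher and a median difference of -0.16. The shares over all entries tested were 3.97% lower and 2.96% higher. SFTA2, a small secreted surfactant-associated protein, read 5.37 and 3.71 FPKM in HCC827, was listed at 0 in HCC827/GR replicates 1 and 3 and read 0.0136 FPKM in replicate 2 (difference -2.45, SE 0.167, limma adjusted p 0.00469). Being near 0 in HCC827/GR, SFTA2 reached the minimum through HCC827 alone, at a parental level already near or past the fold threshold. LPCAT1, an acyltransferase of surfactant lipid synthesis whose entry joined SLC6A3, had mean levels of 77.1 ± 2.76 FPKM (SD, n = 2) and 35.7 ± 4.65 FPKM (SD, n = 3) and a difference of -1.10 (adjusted p 0.0159). The count called lower was 1 without HCC827/GR replicate 1.

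ABCA3, the transporter that loads lipid into lamellar bodies, moved the opposite way. It read 2.38 and 2.53 FPKM in HCC827 and 6.91, 6.63 and 6.95 FPKM in HCC827/GR, a difference of 1.18 (SE 0.0854; limma adjusted p 0.00521), with no overlap and little spread within either line. SDC4 and CTSH, the most abundant markers that were not called, had mean levels of 92.8 and 8.68 FPKM in HCC827 and 76.9 and 8.77 FPKM in HCC827/GR. SLC34A2, the type II phosphate transporter and a gene named after its values were seen, was at or under 0.0179 FPKM in every library.

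The airway secretory list had 18 genes, 16 with an entry and 6 tested, of which 4 were called lower and 1 higher. Their median difference was -1.48. The shares called over all entries tested were 3.97% lower and 2.96% higher. MUC5B, a gel-forming airway mucin, read 2.35 and 2.22 FPKM in HCC827 and at most 0.0230 FPKM in HCC827/GR (difference -1.69; limma adjusted p 0.00521). SLPI, a secreted protease inhibitor, had a mean of 2.06 ± 0.0777 FPKM (SD, n = 2) in HCC827 and was listed at 0 in all 3 HCC827/GR libraries. AGR2, a chaperone of mucin folding, read 2.22 and 1.15 FPKM in HCC827 and at most 0.0258 FPKM in HCC827/GR (difference -1.38; adjusted p 0.0265).

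The entry of CEACAM6, an adhesion molecule, joined CEACAM5 and AC243967.1 and read 1.87 and 2.11 FPKM in HCC827, was listed at 0 in HCC827/GR replicates 1 and 3 and read 0.00519 FPKM in replicate 2. All 4 lower genes had a mean over the 5 libraries below 1 FPKM, and with a minimum of 1 FPKM 0 were called lower. Their mean levels in HCC827/GR were 0.0176 FPKM or less, so they reached the minimum for testing through HCC827 alone. A gene near 0 in HCC827/GR is tested only at a parental level already near or past the fold threshold. The count called lower and the median of this list therefore depend on the minimum. CREB3L1, a membrane-bound transcription factor of secretory cells, rose from 0.928 and 1.66 FPKM to 5.28, 4.02 and 6.01 FPKM (difference 1.42; limma adjusted p 0.0246), a call that was lost under Ballgown's model. LCN2, at a mean of 12.6 FPKM in HCC827 and 7.06 FPKM in HCC827/GR, was not called.

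Of the alveolar type I list, 7 of 16 genes were tested and 0 were called by limma or under Ballgown's model, with 3 at an unadjusted limma p below 0.05; without HCC827 replicate 2 or HCC827/GR replicate 1, 1 was called lower. CAV1, the caveolar coat protein, had mean levels of 205 ± 48.5 FPKM (SD, n = 2) in HCC827 and 103 ± 14.1 FPKM (SD, n = 3) in HCC827/GR, a difference of -0.97 (adjusted p 0.0489) just short of the fold threshold. GPRC5A, a retinoic acid-induced receptor, differed by 0.56 (adjusted p 0.0272). Of the 14 ciliated cell genes 4 were tested and 1 was called lower, where 3.97% of all entries tested were called lower. This was TPPP3, a tubulin-binding protein, which read 3.14 and 3.98 FPKM in HCC827 and 1.02, 0.535 and 0.386 FPKM in HCC827/GR (difference -1.48, adjusted p 0.0199). The most abundant ciliated genes not called, DNAH5 and MCIDAS, differed by 0.03 and 0.19. CAPS, the remaining tested gene, was named after its values were seen. Its entry joined VMAC and AC104532.1 and differed by -0.51. Of the 10 airway basal genes 3 were tested and 0 were called by limma or under Ballgown's model, 2 having an unadjusted limma p below 0.05, with ITGA6 at a difference of -0.64 and S100A2 at 0.63. KRT15, a keratin of basal cells with no entry under its symbol, was left out of that count. Its transcripts were in an entry under the symbol MIR6510 that joined both genes, which read 2.10 and 1.94 FPKM in HCC827 and 0.350, 0.308 and 0.518 FPKM in HCC827/GR (difference -1.12, SE 0.130; limma adjusted p 0.0130) and was called lower. Among the regulators, ETV5 was likewise in an entry under the symbol DGKG, which was not called (difference -0.47; limma adjusted p 0.246). Both entries were found after their values were seen. The share of all entries tested with an unadjusted p below 0.05 was not counted. The 3 type I and 2 basal genes at such a p therefore have no background beside them.

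**Figure D4:**
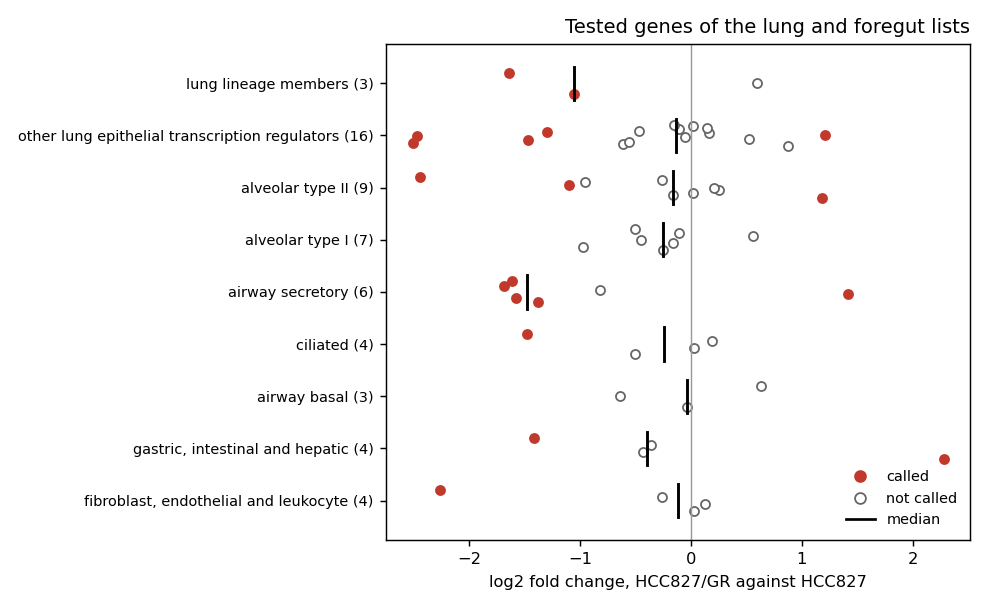
Differences in log2(FPKM + 1) between HCC827/GR and HCC827 for the tested genes of the lung lineage set and of each list of lung and other cell types. Each point is 1 gene, filled where called, and black lines are medians. The airway secretory genes have the lowest median of the lists, at -1.48, but its lower genes reached the minimum for testing through HCC827 alone. The alveolar type II genes are spread on both sides of 0, from -2.45 to 1.18.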

How the data were processed

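RNA-seq of HCC827/GR (3 libraries) and HCC827 (2 libraries) was analysed at gene level. The authors deposited FPKM values per gene entry, made with StringTie on assembled and annotated transcripts, and the submitters' processing notes also name cutadapt, FastQC, Bowtie2 and TopHat2 with the build hg18. The table holds no coordinates; the positions given are those of GENCODE 29 on GRCh38, found through Ensembl identifiers. The labels' protocol (a small-RNA library) and the study's methods (rRNA-depleted mRNA, paired ends) differ, and which of them applies was not settled. The deposited table has 1 further FPKM column whose name matched no sample here, and it was not used. Joining of neighbouring genes affected 1484 entries, whose FPKM are for the joined locus.

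FPKM values were transformed to log2(FPKM + 1), and 16189 entries whose mean reached 0.5 FPKM were tested with limma 3.58.1 in R 4.3.3 (eBayes with trend, two-sided), with Benjamini-Hochberg adjustment over all of them. An entry was called at a fold of 2 or more, or of 0.5 or less, on that scale and an unadjusted p below 0.05, as in the study's methods, which used Ballgown. Fold changes on this scale understate the change of low genes. An entry near 0 in HCC827/GR passes the minimum through HCC827 alone. Its level there is then already near or past the fold threshold, as for GRHL2, SFTA2 and PECAM1. Low values gave no clear read step, so reads were not recovered. The fit was tested on simulated data. No table of p-values or fold changes by the authors was used.

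All 10 lineage genes were described. From each list every called gene (at most the 6 with the largest difference) and up to 2 of the most abundant genes not called were named; other genes were chosen after their values were seen and are marked so. The regulator called higher is counted but not reported here. The members and lists were chosen with earlier results of these data known, so no p was adjusted over a list and no set test was run. Alternatives were the pseudocount (0.1), the minimum (none or 1 FPKM), median-ratio and quantile scaling, no trend, Ballgown's model, a replicate block, summed entries, ratios of mean FPKM and leaving out each library; reading NAPSA from its joined entry was added after seeing the data. Promoter windows came from RefSeq on GRCh38.p14. Summaries and figures were made with Python 3.11.15, numpy 2.4.6, pandas 2.3.3 and matplotlib 3.10.9.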

Additional observations from a re-analysis of the deposited data

How the results depend on the processing

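With a pseudocount of 0.1, 860 entries were called higher and 1024 lower, against 480 and 643 with a pseudocount of 1, and with ratios of mean FPKM 919 were higher and 1201 lower. With ratios of mean FPKM 1 lineage gene, GATA6, was also called higher. With Ballgown's model 1 lineage gene was called lower, and leaving out 1 library gave 1 to 2, the lower count without HCC827 replicate 3; FOXA1 was the gene lost in both cases. With no minimum on the level, 5 of the 8 lineage genes with an entry had groups that did not overlap. These took in FOXA2 and SFTPB, whose means over all libraries were only 0.251 and 0.0857 FPKM. The share of all entries was not counted for that setting, so the count has no background beside it. Leaving out 1 library gave 509 to 622 entries higher and 554 to 744 lower over all entries, and 3 to 4 higher and 12 to 14 lower over the other lists. The cause of these shifts was not tested. Under every alternative run, NKX2-1 and the joined entry of NAPSA were called lower, and the differences of FOXA1 and GATA6 kept their sign.

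The replicate numbers shared by the lines do not mark a pairing in the labels, and deviations of same-numbered libraries correlated at 0.0328 (replicate 2) and 0.0147 (replicate 3). With 2 HCC827 libraries, the deviations of replicate 3 are those of replicate 2 with the sign reversed, so the values are not separate checks. HCC827/GR replicate 1, which shares no number, correlated at -0.0174 with HCC827 replicate 2 and at 0.0174 with replicate 3. With the replicate block, in which HCC827/GR replicate 1 has no partner, 506 entries were higher and 709 lower and 2 lineage genes were lower; 1 gene each of the alveolar type II and type I lists was lower, against 2 and 0 without it; the limma adjusted p was 0.124 for NKX2-1 and 0.130 for the NAPSA entry.

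Without read numbers, it is unknown how many reads a level below 0.1 FPKM rests on, and a parental group of 2 libraries gives a poor estimate of its own spread.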

Other observations

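Genes of other organs and cell types were read from further lists. Of 24 gastric, intestinal and hepatic genes, 19 had an entry and 4 were tested, with 1 called higher and 1 lower by limma. The shares over all entries tested were 2.96% higher and 3.97% lower. MUC13, a transmembrane mucin of the gut, read 2.21 and 3.34 FPKM in HCC827 and 0.452, 0.320 and 0.421 FPKM in HCC827/GR (difference -1.42, SE 0.170; limma adjusted p 0.0140). CLDN2, a pore-forming claudin of leaky epithelia, read 5.25 and 4.002 FPKM in HCC827 and 9.70, 42.2 and 42.4 FPKM in HCC827/GR (difference 2.28, SE 0.697; limma adjusted p 0.119). HCC827/GR replicate 1 lay apart from replicates 2 and 3 for CLDN2. The call of CLDN2 was lost without either HCC827 library, without HCC827/GR replicate 2 or 3, and under Ballgown's model. HNF4G and FGB were not called, with mean levels of 6.19 and 4.66 FPKM in HCC827 and 4.61 and 3.27 FPKM in HCC827/GR.

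Of 10 neuroendocrine genes, 6 had an entry and 0 reached the minimum for testing, the highest value in any library being 0.529 FPKM. That value was in HCC827 replicate 2, for the entry of NEUROD1, which joined CERKL and was named after its values were seen. Of 12 genes of fibroblasts, endothelial cells and leukocytes, 4 were tested and 1, PECAM1, was called lower, beside 3.97% of all entries tested. PECAM1 read 4.34 and 3.32 FPKM in HCC827 and was listed at 0 in all 3 HCC827/GR libraries, in an assembled entry that holds no annotated transcript. It thus reached the minimum for testing through HCC827 alone, at a parental level already near or past the fold threshold. CD68, whose entry joined 6 genes, had mean levels of 34.9 and 35.3 FPKM, and PDGFRA, whose entry joined FIP1L1, had 2.47 and 1.89 FPKM. The untested genes of this list were at or under 0.257 FPKM in every library, and its summed level was 38.6 to 45.5 FPKM in HCC827 and 35.7 to 40.7 FPKM in HCC827/GR. Most of that sum was the joined CD68 entry, at 30.8 to 38.9 FPKM across the libraries, so it is not a level of these cell types.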
